A study of Bos taurus with 11 samples.

Results

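The collagen gene family was followed across 3 regions of the growing bovine mammary gland. Its members were all genes of the deposited table whose symbol reads COL, a number, A and a number, which gave 38 of 16279 genes: 10 fibrillar collagens, 8 of basement membranes, 7 fibril-associated collagens (FACIT), 3 transmembrane collagens and 10 others. The choice went by symbol only, though earlier results of these data were known when it was made. RNA came from untreated Holstein heifers of 10 to 12 months, after poly A selection. Parenchyma, the region that holds the ducts, was sampled in heifers 1, 3, 4 and 5 (n = 4), close stroma in heifers 3, 4 and 5 (n = 3) and far stroma in heifers 1, 3, 4 and 5 (n = 4). The labels give no distances between the regions, no cell sorting and no allele, and 1 close stroma sample, that of heifer 4, has a column name that ends in an unexplained letter. All 11 samples were whole pieces of tissue from 4 animals.

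Collagens are secreted or membrane proteins whose chains wind around each other into a helix. Fibrillar collagens form the tensile fibres of connective tissue, network-forming collagens such as type IV build the basement membrane under epithelia, around fat cells and around vessels, and FACIT collagens sit on fibril surfaces. Transmembrane collagens stay in the plasma membrane, where type XVII anchors basal epithelial cells to the basement membrane. In the mammary gland, ducts grow into a fat pad through such a matrix, which fibroblasts, fat cells, endothelium, myoepithelium and epithelium all help to make.

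Values are normalised counts, that is, reads divided by 1 size factor per sample, so they compare a gene between samples and not 1 gene with another. The reads recovered from them numbered 7274474 to 11156909 per sample. Marker genes set parenchyma and far stroma apart and left close stroma mixed. The summed values of 8 epithelial markers lay at 20934 to 26335 in parenchyma, 9876 to 23192 in close stroma and 195 to 241 in far stroma, where TP63 was listed at 0 in all 4 samples and KRT14 in 2. The sums of 7 adipocyte markers lay at 794 to 1078 in parenchyma, 45228 to 166252 in close stroma and 199544 to 270669 in far stroma. The sums of 4 T cell markers lay at 3456 to 4654 in parenchyma, 1756 to 2100 in close stroma and 182 to 523 in far stroma, and those of 4 macrophage markers at 2612 to 3752 in parenchyma, 2331 to 3208 in close stroma and 2195 to 8770 in far stroma. Close stroma held epithelial and adipocyte transcripts in each of its 3 samples. That of heifer 3 stood apart, with the lowest epithelial sum of close stroma (9876, against 23192 and 16487 in heifers 4 and 5) and the highest adipocyte sum (166252, against 45228 and 78786).

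Of the 38 collagen genes, 35 had a mean of at least 10 in some region and were tested, within a fit of all 14596 such genes. In parenchyma against far stroma, 28 of the 35 differed, 14 of them higher and 14 lower, or 80% of the collagens tested against 50.1% of all genes tested. The background was 26.1% of all genes called higher and 24% called lower. The median log2 difference of the tested collagens was 0.41, against 0.06 over all genes. Tests are limma's on log2(value + 1), with Benjamini-Hochberg adjustment over all tested genes and a call at an adjusted p under 0.05. Bulk tissue cannot tell fewer cells of a type from less RNA per cell. Values of cell type markers are given beside results they move with, and their part in the results was not tested.

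**Figure D1:**
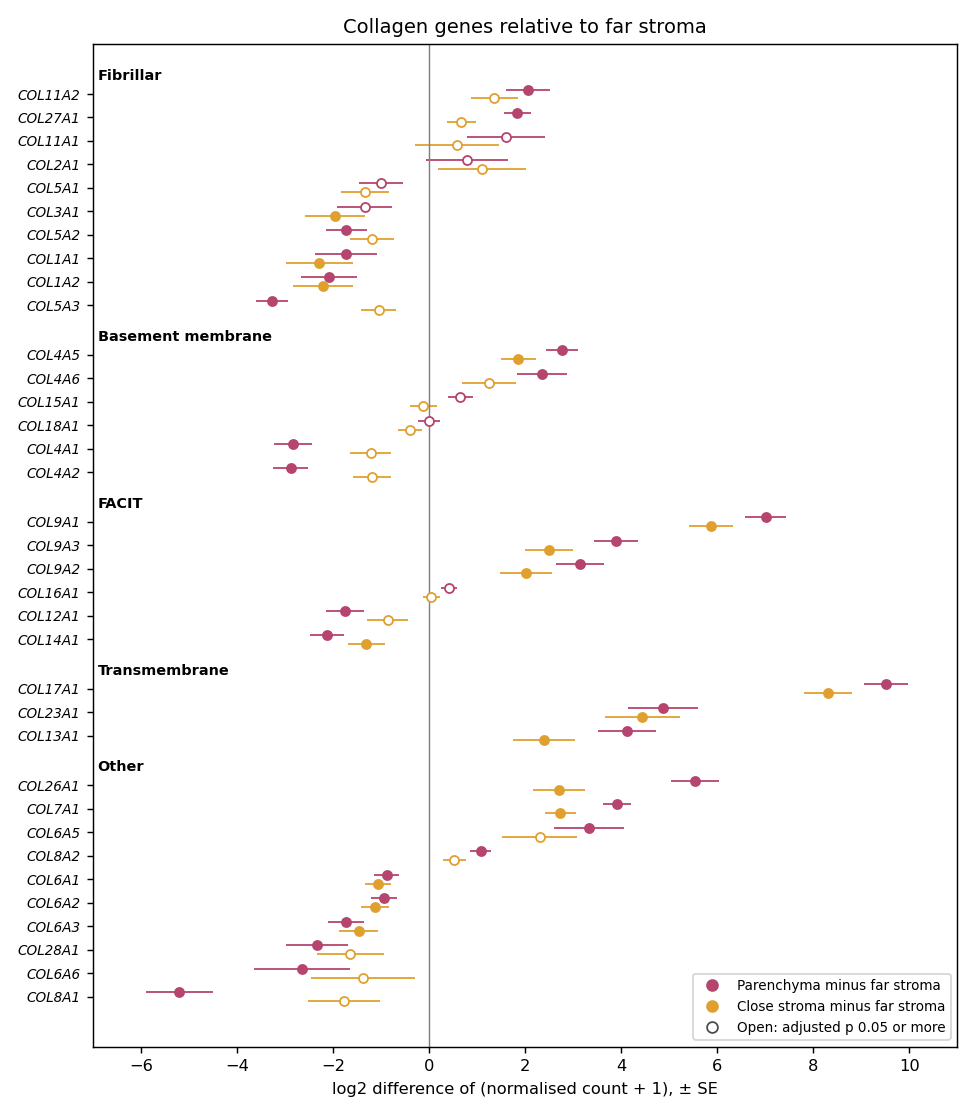
Log2 differences (± SE, limma, on normalised counts + 1) of the 35 tested collagen genes by class, for parenchyma minus far stroma (n = 4 each) and close stroma (n = 3) minus far stroma (n = 4), with filled points for calls and open points for adjusted p of 0.05 or more. COL17A1 lies farthest to the right at 9.52 in parenchyma, and COL8A1 farthest to the left at -5.20.

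The direction followed neither the family nor a class as a whole, except that all 3 transmembrane collagens were higher in parenchyma than in far stroma. Of the fibrillar collagens, 2 were higher, 4 lower and 4 not called. Basement membrane collagens split into 2 higher, 2 lower and 2 not called, with 2 further genes too low to test. FACIT collagens gave 3 higher, 2 lower and 1 not called, with 1 gene too low to test, and the remaining collagens gave 4 higher and 6 lower. Parenchyma and far stroma samples did not overlap in 15 collagens that were higher in parenchyma and in 12 that were lower, against 24% and 21.5% of all genes tested.

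The transmembrane collagens were low in far stroma and were measured in every parenchyma and close stroma sample. COL17A1, the hemidesmosome collagen of basal epithelial cells, had 5824, 7180, 7490 and 11158 normalised counts in the parenchyma of heifers 1, 3, 4 and 5. In close stroma, heifers 3, 4 and 5 had 1010, 6988 and 5136, and in far stroma, heifers 1, 3, 4 and 5 had 9.79, 8.40, 10.2 and 9.68. The far stroma samples lay far below all others without overlap, while 1 close stroma sample, that of heifer 4, came within the range of parenchyma. The mean of COL17A1 was 7913 ± 2281 (SD, n = 4) in parenchyma, against 9.51 ± 0.766 (SD, n = 4) in far stroma, a log2 difference of 9.52 ± 0.46 (SE) with a limma adjusted p of 1.22e-08.

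COL13A1, a transmembrane collagen known from cell adhesion sites such as the neuromuscular junction, had 254, 159, 308 and 354 normalised counts in parenchyma. It had 54.6, 124 and 67.9 in close stroma and 11.7, 64.8, 4.51 and 9.68 in far stroma. Parenchyma lay above both stromal regions, and the far stroma of heifer 3 overlapped close stroma. COL23A1, the remaining gene of the class, had 46.8, 35.8, 49.0 and 102 in parenchyma, 8.63, 74.1 and 93.3 in close stroma, and 1.96, 0, 0 and 3.23 in far stroma. Its close stroma was low in heifer 3 and within the range of parenchyma in heifers 4 and 5. The far stroma values of COL23A1 rested on 4 reads in all. Against far stroma, the log2 differences in parenchyma were 4.12 ± 0.61 for COL13A1 (limma adjusted p = 0.000123) and 4.86 ± 0.72 for COL23A1 (limma adjusted p = 0.000135). All 8 epithelial markers were also higher in parenchyma than in far stroma, with a median log2 difference of 8.45.

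**Figure D2:**
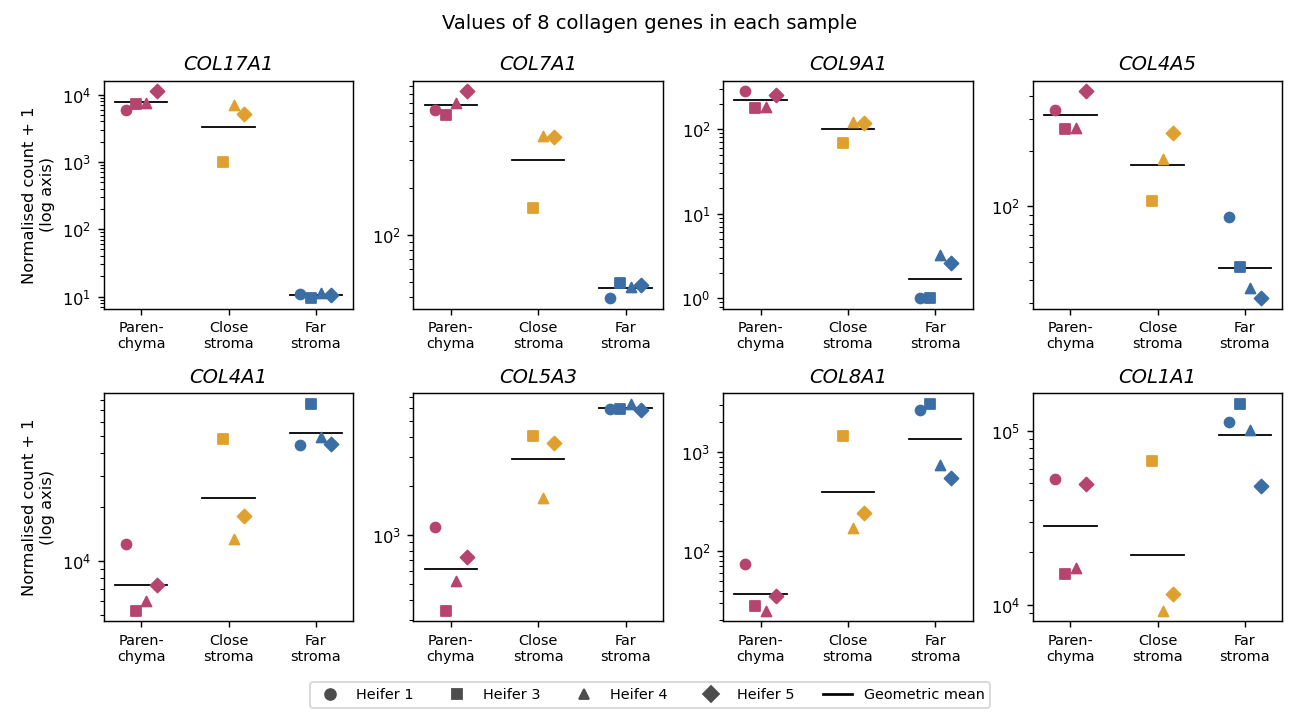
Normalised counts + 1 (log axis) of 8 collagen genes in each sample of parenchyma, close stroma and far stroma, with 1 symbol per heifer and a line at the geometric mean of each region. COL17A1, COL7A1, COL9A1 and COL4A5 are highest in parenchyma, COL4A1, COL5A3, COL8A1 and COL1A1 are highest in far stroma, and the close stroma of heifer 3 (squares) lies nearest to far stroma in all 8.

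COL7A1 forms the anchoring fibrils that tie the epithelial basement membrane to the tissue beneath. It had 627, 587, 697 and 829 normalised counts in parenchyma, 148, 431 and 426 in close stroma, and 38.2, 48.0, 45.1 and 46.8 in far stroma. The 3 regions did not overlap, and parenchyma was highest in each heifer. The log2 difference between parenchyma and far stroma was 3.91 ± 0.30 (limma adjusted p = 5.65e-07).

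COL26A1, which carries collagenous stretches next to an EMI domain, had 211, 93.5, 219 and 515 normalised counts in parenchyma. It had 53.7, 21.6 and 22.6 in close stroma and 3.91, 6, 4.51 and 1.61 in far stroma. Again no region overlapped another. It was higher in parenchyma than in far stroma by a log2 difference of 5.53 ± 0.50 (limma adjusted p = 2.55e-06) and higher than in close stroma by 2.83 ± 0.54 (limma adjusted p = 0.0084). Both calls held under every alternative processing.

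The type IV chains, which form the sheet-like network of basement membranes, split by chain pair. COL4A1 and COL4A2, the chains found in nearly all basement membranes, were lower in parenchyma than in far stroma, and COL4A5 and COL4A6, whose network is known from a narrower set of epithelia and smooth muscle, were higher. COL4A1 had 12366, 5276, 5994 and 7332 normalised counts in the parenchyma of heifers 1, 3, 4 and 5. It had 47847, 13295 and 17811 in close stroma and 44400, 75783, 49093 and 44820 in far stroma. Parenchyma was below both stromal regions, and the close stroma of heifer 3 alone reached the range of far stroma. Its log2 difference was -2.83 ± 0.39 (limma adjusted p = 7.69e-05).

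COL4A2, its partner chain, had 5813, 2770, 3329 and 3552 normalised counts in parenchyma, 25027, 7604 and 9059 in close stroma, and 20825, 37489, 29689 and 24170 in far stroma. The order of the regions was that of COL4A1, with the close stroma of heifer 3 again inside the range of far stroma. The log2 difference was -2.88 ± 0.36 (limma adjusted p = 3.51e-05). The sums of 6 blood endothelium markers, a cell type that rests on type IV collagen, lay at 6614 to 8290 in parenchyma, 11205 to 24286 in close stroma and 21333 to 31121 in far stroma. Fat cells are also wrapped in basement membrane, and all 7 adipocyte markers were lower in parenchyma than in far stroma.

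COL4A5 had 333, 263, 266 and 420 normalised counts in parenchyma, 105, 179 and 248 in close stroma, and 86.1, 45.6, 35 and 30.6 in far stroma. The regions did not overlap, and the log2 difference between parenchyma and far stroma was 2.77 ± 0.34 (limma adjusted p = 2.93e-05). COL4A6 had 106, 93.5, 49.9 and 141 in parenchyma, 29.7, 48.8 and 51.6 in close stroma, and 48.9, 22.8, 11.3 and 6.45 in far stroma. Heifer 4 held the lowest COL4A6 value of parenchyma, which lay just above the highest far stroma value, that of heifer 1. Its log2 difference was 2.35 ± 0.52 (limma adjusted p = 0.0025). The sums of 7 smooth muscle and pericyte markers, which also mark the contractile cells around ducts, lay at 11379 to 16306 in parenchyma, 7344 to 13598 in close stroma and 4295 to 6249 in far stroma. Of the 7, ACTA2, MYH11 and NOTCH3 were higher in parenchyma than in far stroma, KCNJ8 was lower (142 normalised counts in parenchyma, compared with 459 in far stroma), and CNN1, DES and RGS5 were not called.

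COL4A3 and COL4A4, which form the kidney filter's collagen network with COL4A5, were too low to test. COL4A3 had 0 reads in the 4 parenchyma samples, against 9 in far stroma. It was 4.26-fold lower in parenchyma when its 0 reads were set to a floor of 3 over the group. Its far stroma values were 0, 7.2, 2.26 and 1.61 normalised counts in heifers 1, 3, 4 and 5. COL4A4 had 1 read in parenchyma and 19 in far stroma, a ratio of 0.0371 with a 95% counting interval of 0.000892 to 0.233. Such intervals cover counting error only, and the floor leaves out the counting error of the 9 far stroma reads. Ratios of pooled reads are scaled by the size factors of the samples.

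COL15A1 and COL18A1, proteoglycan-bearing collagens of basement membrane zones, did not pass the threshold in any comparison. COL15A1 had 6893, 4374, 5217 and 5934 normalised counts in parenchyma, 3307, 2678 and 3883 in close stroma, and 4531, 4592, 2011 and 3701 in far stroma. Parenchyma lay above close stroma without overlap, but the parenchyma of heifer 3 lay inside the range of far stroma. Its log2 difference between parenchyma and far stroma was 0.65 ± 0.26 (limma adjusted p = 0.053), and it was called with the heifer as a block (limma adjusted p = 0.0262) and without the parenchyma of heifer 3 or the far stroma of heifer 1 or 3 (limma adjusted p = 0.0462, 0.0353 and 0.0351). It was also called with library totals as the scaling (log2 difference 1.07, limma adjusted p = 0.00463), in DESeq2 (adjusted p = 0.0476) and in edgeR with the block (adjusted p = 0.0337). COL18A1, the source of the fragment endostatin, had 6841, 5397, 6455 and 10392 in parenchyma, 6285, 5104 and 4873 in close stroma, and 5359, 7092, 7049 and 9390 in far stroma. These ranges overlapped throughout, and the sign of the COL18A1 difference, -0.01 ± 0.23, changed with the scaling (0.42 with library totals).

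Among the abundant fibrillar collagens, COL1A1, COL1A2, COL5A2 and COL5A3 were lower in parenchyma than in far stroma and COL3A1 and COL5A1 were not called, with a wide spread between heifers in most. COL1A1, the main chain of type I collagen, had 52814, 14947, 16312 and 49427 normalised counts in the parenchyma of heifers 1, 3, 4 and 5. It had 67400, 9257 and 11544 in close stroma and 112075, 143028, 101549 and 47902 in far stroma. Among parenchyma samples, heifers 1 and 5 stood high and exceeded the lowest far stroma sample, that of heifer 5. Its mean was 33375 ± 20545 (SD, n = 4) in parenchyma, against 101139 ± 39618 (SD, n = 4) in far stroma, and its log2 difference was -1.73 ± 0.64 (limma adjusted p = 0.0384). This COL1A1 call was lost with library totals as the scaling (limma adjusted p = 0.0733) and in edgeR (adjusted p = 0.0586 with TMM). Leaving out the parenchyma of heifer 3 or 4, or the far stroma of heifer 1, 3 or 4, also lost it, with limma adjusted p of 0.115, 0.108, 0.074, 0.0889 and 0.0694.

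COL1A2, the second chain of type I collagen, had 24123, 8058, 9336 and 22320 normalised counts in parenchyma, 41924, 6165 and 8464 in close stroma, and 73094, 91562, 61950 and 31522 in far stroma. The 4 parenchyma samples lay below all far stroma samples, with heifers 1 and 5 again the highest of parenchyma. The log2 difference was -2.08 ± 0.58 (limma adjusted p = 0.00998). COL3A1, whose fibrils mix with type I in soft tissues, had 70044, 17310, 31863 and 70001 in parenchyma, 67172, 12241 and 22297 in close stroma, and 119528, 168538, 83136 and 65546 in far stroma. The parenchyma of heifers 1 and 5 exceeded the far stroma of heifer 5, and the COL3A1 difference of -1.34 ± 0.57 was not called (limma adjusted p = 0.0685), though it was when the close stroma of heifer 3 was left out of the fit (limma adjusted p = 0.0331), with the 2 regions only (limma adjusted p = 0.0403) and in DESeq2 (adjusted p = 0.0376). Sums of 12 fibroblast markers that are no collagens lay at 32523 to 43732 in parenchyma, 34036 to 57021 in close stroma and 87397 to 122318 in far stroma. Heifers 1 and 5 held the highest sums of parenchyma. DCN had the largest means of the 12, 18525 in parenchyma and 59425 in far stroma. By limma, 8 of the 12 were lower in parenchyma than in far stroma and 4 were not called. PDGFRA averaged 1476 in parenchyma and 1649 in far stroma, and POSTN 825 in parenchyma and 307 in far stroma.

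Type V collagen, which sets the diameter of type I fibrils, differed by chain. COL5A3 was lower in parenchyma than in far stroma in all 4 heifers, with 1111, 342, 523 and 734 normalised counts in parenchyma, 4015, 1678 and 3642 in close stroma, and 5900, 5931, 6377 and 5842 in far stroma. The 3 regions did not overlap, and the far stroma samples lay close together. The mean of COL5A3 was 678 ± 330 in parenchyma, compared with 6012 ± 246 in far stroma, a log2 difference of -3.28 ± 0.34 (limma adjusted p = 6.81e-06).

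COL5A1 had 7364, 2694, 3251 and 6886 normalised counts in parenchyma, 7868, 2080 and 2968 in close stroma, and 12267, 14731, 7236 and 5572 in far stroma. As for COL1A1, the parenchyma of heifers 1 and 5 overlapped far stroma, and the difference of -1.01 ± 0.46 was not called (limma adjusted p = 0.0848), but passed without the close stroma of heifer 3 in the fit (limma adjusted p = 0.0447). COL5A2, the common partner of COL5A1, averaged 1311 ± 633 in parenchyma, 1968 ± 1136 in close stroma and 4251 ± 1801 in far stroma, with a log2 difference of -1.72 ± 0.42 between parenchyma and far stroma (limma adjusted p = 0.00479).

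The lower-count fibrillar chains ran the other way or were not called. COL27A1, a fibrillar collagen best known from cartilage, had 397, 328, 373 and 360 normalised counts in parenchyma, 104, 178 and 225 in close stroma, and 131, 98.4, 62.1 and 129 in far stroma. Parenchyma lay above both stromal regions, which overlapped each other. Its log2 differences were 1.84 ± 0.27 against far stroma (limma adjusted p = 0.000134) and 1.17 ± 0.30 against close stroma (limma adjusted p = 0.0328). COL11A2, a chain of type XI collagen of cartilage, averaged 25.0 ± 6.59 in parenchyma, 15.6 ± 7.89 in close stroma and 5.70 ± 3.62 in far stroma, a log2 difference of 2.07 ± 0.46 between parenchyma and far stroma (limma adjusted p = 0.00239). COL11A1, the other type XI chain, was not called, at 29.8 ± 24.7 in parenchyma, 9.29 ± 3.11 in close stroma and 7.71 ± 8.03 in far stroma (log2 difference between parenchyma and far stroma 1.60 ± 0.81, limma adjusted p = 0.118). COL11A1 passed without the parenchyma of heifer 3 or the far stroma of heifer 1 (limma adjusted p = 0.00776 and 0.0439), in DESeq2 (adjusted p = 0.0407) and in edgeR with the block (adjusted p = 0.04). COL2A1, the main collagen of cartilage, was not called either, at 11.2 ± 8.35 in parenchyma, 11.5 ± 5.16 in close stroma and 6.97 ± 5.98 in far stroma.

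Type IX collagen, known as the FACIT that decorates type II fibrils of cartilage, was almost absent from far stroma. COL9A1 had 278, 178, 182 and 255 normalised counts in parenchyma, 68.1, 121 and 117 in close stroma, and 0, 0, 2.26 and 1.61 in far stroma. No region overlapped another, and in heifers 3, 4 and 5 close stroma lay between the other two. The far stroma value rests on 3 reads in all, against 1070 in parenchyma. Scaled by the size factors, the ratio of pooled reads was 251, with a 95% counting interval of 85.8 to 1220. COL9A2 and COL9A3, the other two chains, were also higher in parenchyma, with 50 and 82 pooled reads, against 1 read each in far stroma. Their ratios of pooled reads, scaled in the same way, were 35.2 (95% counting interval 6.04 to 1420) for COL9A2 and 57.8 (10.1 to 2310) for COL9A3. On the log2(value + 1) scale the differences were 7.01 ± 0.42 for COL9A1, 3.15 ± 0.50 for COL9A2 and 3.90 ± 0.46 for COL9A3 (limma adjusted p = 8.18e-08, 0.00022 and 2e-05).

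The cartilage and bone markers did not move as a group with the type IX chains. Of the 9, 7 had a row and 5 were tested, and in parenchyma against far stroma SOX9 and RUNX2 were higher, COMP and BGLAP were lower and ACAN was not called. SOX9, a transcription factor known to drive type II and type IX collagen genes in cartilage, had a mean of 322 normalised counts in parenchyma, compared with 10.2 in far stroma. ACAN, the cartilage proteoglycan aggrecan, had a mean of 5.66 in parenchyma, compared with 10.5 in far stroma. The sums of the 7 measured markers lay at 680 to 973 in parenchyma, 379 to 763 in close stroma and 128 to 250 in far stroma.

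COL12A1 and COL14A1, FACIT collagens on type I fibrils, ran opposite to type IX. COL12A1 had 810, 529, 272 and 596 normalised counts in parenchyma, 1168, 713 and 1024 in close stroma, and 2598, 2839, 1428 and 847 in far stroma. All parenchyma samples lay below far stroma, though heifer 1 came near the far stroma of heifer 5, and the log2 difference was -1.75 ± 0.39 (limma adjusted p = 0.00267). COL14A1 had 1512, 782, 546 and 1329 in parenchyma, 2424, 1165 and 1744 in close stroma, and 5843, 5956, 3159 and 2890 in far stroma. For COL14A1, far stroma stood above both other regions in every heifer, with a log2 difference between parenchyma and far stroma of -2.13 ± 0.36 (limma adjusted p = 0.000335). COL16A1 averaged 1180 ± 149 in parenchyma, 929 ± 212 in close stroma and 888 ± 85.0 in far stroma. Its parenchyma samples lay above all far stroma samples, but the log2 difference of 0.41 ± 0.17 was not called (limma adjusted p = 0.059). COL16A1 was called with library totals as the scaling (limma adjusted p = 0.00323), with the 2 regions only (limma adjusted p = 0.0384), without the close stroma of heifer 3 (limma adjusted p = 0.0272) and in DESeq2 (adjusted p = 0.0459). COL20A1 stayed at or below 6.85 in every sample and was not tested.

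Type VI collagen, the beaded microfilament collagen found around most cells, was lower in parenchyma than in far stroma in its main chains. COL6A1 had 13596, 7123, 9081 and 14958 normalised counts in parenchyma, 11357, 8213 and 9048 in close stroma, and 21412, 20658, 22748 and 15081 in far stroma. COL6A2 had 12127, 6695, 7361 and 14799 in parenchyma, 10922, 7243 and 7837 in close stroma, and 16917, 18569, 23916 and 16064 in far stroma. For both, far stroma stood above the other two regions without overlap, although heifer 5 had its parenchyma close to its far stroma. The log2 differences between parenchyma and far stroma were -0.88 ± 0.26 for COL6A1 and -0.94 ± 0.27 for COL6A2 (limma adjusted p = 0.0124 and 0.012), and both calls were lost with library totals as the scaling (limma adjusted p = 0.107 for COL6A1 and 0.0737 for COL6A2).

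COL6A3, the long chain that carries the fragment endotrophin, had 4386, 1891, 2017 and 3547 normalised counts in parenchyma, 5265, 2233 and 3152 in close stroma, and 11708, 14618, 8385 and 5072 in far stroma. All parenchyma values lay below far stroma, and the close stroma of heifer 3 passed the lowest far stroma value, that of heifer 5. The log2 difference was -1.73 ± 0.38 (limma adjusted p = 0.00212). COL6A5 and COL6A6, chains that can take the place of COL6A3, went in opposite directions. COL6A5 averaged 234 ± 183 in parenchyma, 121 ± 123 in close stroma and 19.9 ± 10.2 in far stroma, a log2 difference between parenchyma and far stroma of 3.32 ± 0.73 (limma adjusted p = 0.00231). COL6A6 averaged 45.5 ± 39.1 in parenchyma, 123 ± 129 in close stroma and 364 ± 360 in far stroma, a log2 difference of -2.65 ± 1.00 (limma adjusted p = 0.043). The COL6A6 regions overlapped, and its call was lost with library totals as the scaling (limma adjusted p = 0.0668). It was also lost without the parenchyma of heifer 3 or 4, the close stroma of heifer 5, or the far stroma of heifer 1 or 3, with limma adjusted p of 0.0544 to 0.122.

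The pair of type VIII chains, which form short-chain networks in vessel walls and the cornea, also diverged. COL8A1 had 72.4, 26.8, 24.1 and 33.9 normalised counts in parenchyma, 1456, 171 and 244 in close stroma, and 2626, 3075, 738 and 548 in far stroma. Parenchyma was far below both stromal regions, with a log2 difference from far stroma of -5.20 ± 0.69 (limma adjusted p = 5.75e-05), the most negative of the family. COL8A2 averaged 287 ± 70.2 in parenchyma, 196 ± 46.0 in close stroma and 134 ± 19.8 in far stroma, a log2 difference between parenchyma and far stroma of 1.07 ± 0.22 (limma adjusted p = 0.00145). COL28A1, a collagen related to type VI and known from peripheral nerve, averaged 3.69 ± 3.08 in parenchyma, 5.35 ± 3.01 in close stroma and 19.3 ± 11.4 in far stroma, a log2 difference of -2.33 ± 0.65 between parenchyma and far stroma (limma adjusted p = 0.00958).

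Under 24 alternative settings, wherever a gene was tested, all 14 collagens higher in parenchyma than in far stroma kept their call. So did 10 of the 14 lower ones, the exceptions being COL1A1, COL6A1, COL6A2 and COL6A6. Scaling by library totals moved the median log2 difference of all genes by 0.42 in this comparison and changed the collagen split to 16 higher and 10 lower (61.5% higher). Over all genes it gave 6322 higher and 2106 lower (75% higher), compared with 3805 and 3501 without it.

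Collagens took 2.76, 1.11, 1.42 and 2.57% of all reads in the parenchyma of heifers 1, 3, 4 and 5. They took 3.13, 1.07 and 1.42% in close stroma and 4.51, 5.65, 3.50 and 2.42% in far stroma. The far stroma of heifer 5 was lower than the parenchyma of heifers 1 and 5, so the regions overlapped. Fibrillar genes made up 68.1, 49.8, 55.0 and 65.9% of collagen reads in parenchyma, 62.0, 36.1 and 43.4% in close stroma, and 70.4, 69.1, 63.8 and 56.3% in far stroma. Basement membrane genes made up 12.1 to 20.4% of collagen reads in parenchyma, 26.7 to 32.0% in close stroma and 16.1 to 29.0% in far stroma. Transmembrane collagens, mostly COL17A1, made up 2.64 to 8.26% in parenchyma, 0.347 to 7.96% in close stroma and 0.00356 to 0.0118% in far stroma. These shares count reads and therefore weight long transcripts more.

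**Figure D3:**
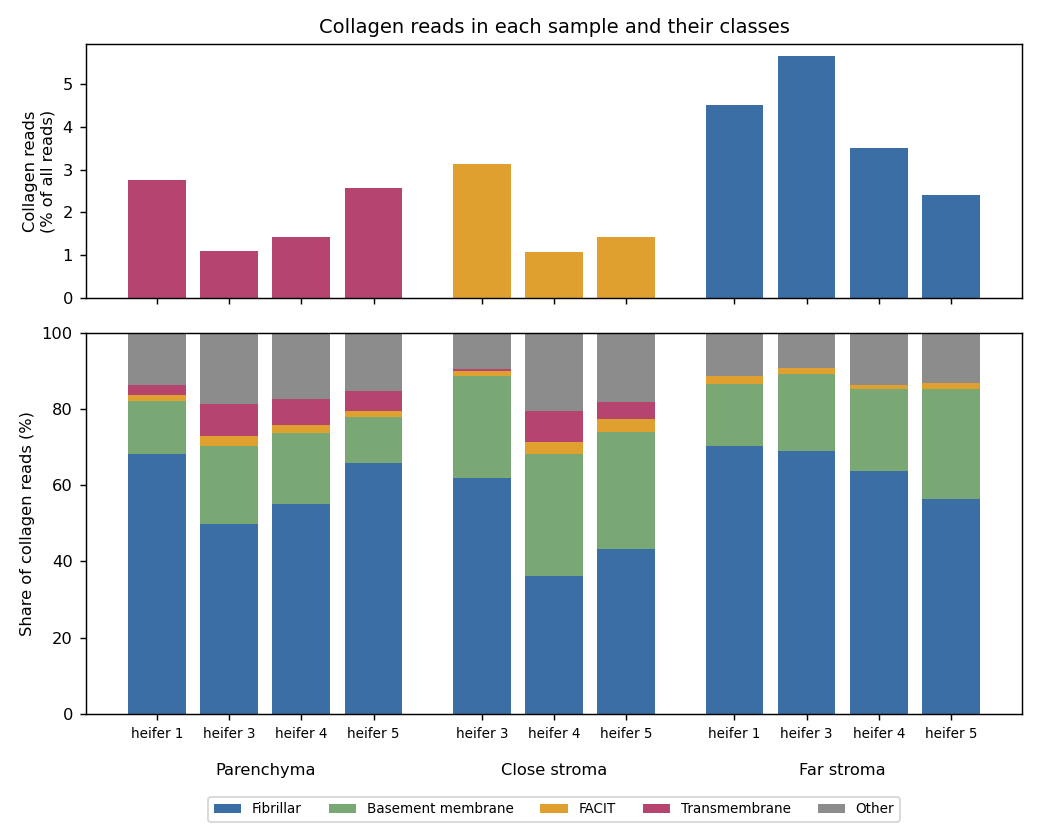
Collagen reads as a percentage of all reads (upper panel, bars coloured by region) and the share of each collagen class in the collagen reads (lower panel, in percent), with 1 bar per sample. The highest bar is the far stroma of heifer 3 at 5.65%, and the transmembrane class is visible in all 4 parenchyma bars and in close stroma for heifers 4 and 5 but not in far stroma.

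Ratios between chains within a sample do not depend on the scaling between samples. For COL4A5 to COL4A1, the geometric mean ratio was 0.0431 in parenchyma, 0.00750 in close stroma and 0.000889 in far stroma, a log2 difference between parenchyma and far stroma of 5.60. COL5A1 to COL1A1 was 0.163 in parenchyma, 0.189 in close stroma and 0.0983 in far stroma (log2 difference 0.73 between parenchyma and far stroma). COL1A2 to COL1A1 was 0.502 in parenchyma, 0.672 in close stroma and 0.640 in far stroma (-0.35), and COL6A3 to COL6A1 was 0.259 in parenchyma, 0.353 in close stroma and 0.468 in far stroma (-0.85). In these 4 ratios the parenchyma and far stroma samples did not overlap. Each had an exact permutation p of 0.0286 (two-sided, 4 against 4, unpaired), the smallest that test allows. Adjusted over the 8 ratios computed, each p was 0.0571, so none passed 0.05. The same heifers gave both regions, and an exact sign-flip test paired by heifer allows no p under 0.125. Its adjusted p was 0.25 for each of the 4 ratios.

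The ratio of COL4A2 to COL4A1 was 0.508 in parenchyma, 0.534 in close stroma and 0.524 in far stroma, with no difference beyond the spread between heifers (exact permutation p = 0.686). That of COL6A2 to COL6A1 was 0.906 in parenchyma, 0.902 in close stroma and 0.944 in far stroma (exact permutation p = 0.6). COL4A1 and COL4A2 are neighbouring genes in the bovine annotation, as are COL6A1 and COL6A2. So are COL6A5 and COL6A6, which went in opposite directions between parenchyma and far stroma (log2 differences of 3.32 and -2.65). Also neighbours are COL5A2 (called lower) and COL3A1 (not called), COL4A5 and COL4A6 (both higher), and COL4A3 and COL4A4 (both too low to test). COL3A1 to COL1A1 (log2 difference 0.40, exact permutation p = 0.143) and COL4A6 to COL4A5 (-0.42, p = 0.257) overlapped between parenchyma and far stroma.

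**Figure D4:**
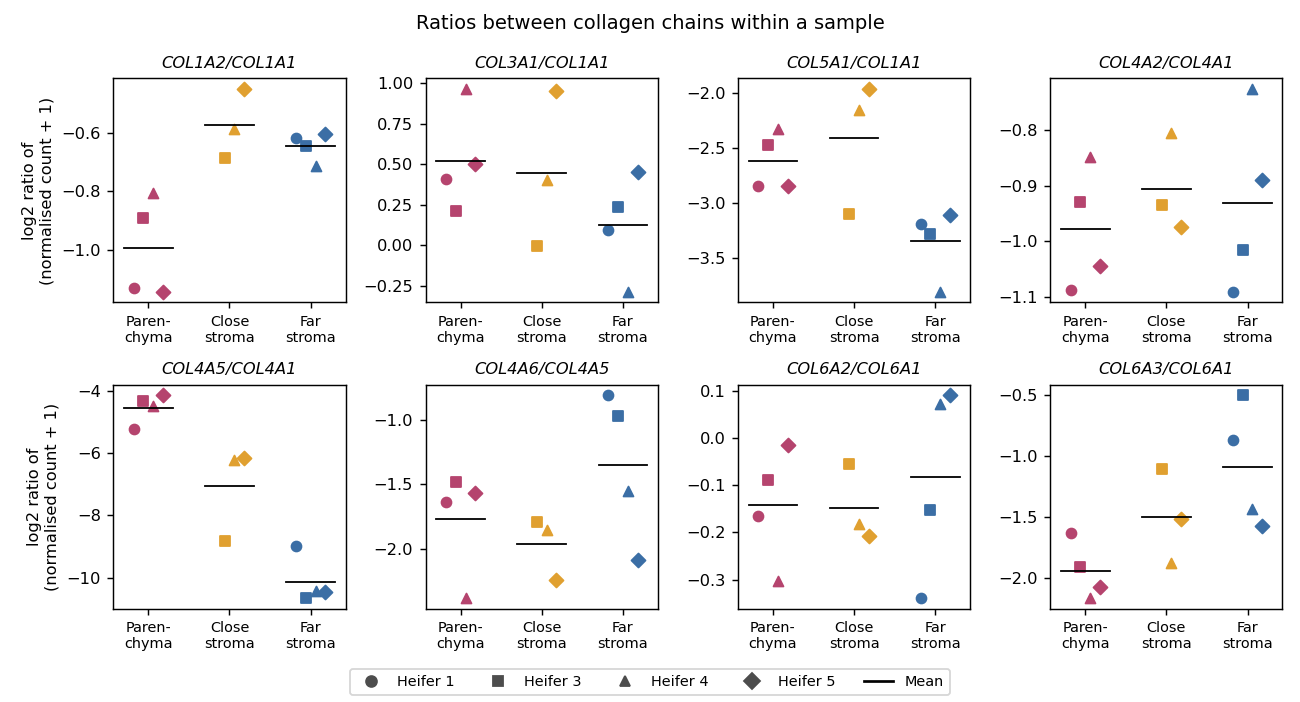
Log2 ratios of 8 pairs of collagen chains (normalised counts + 1) in each sample of parenchyma, close stroma and far stroma, with 1 symbol per heifer and a line at the mean of each region. COL4A5/COL4A1 steps down across the regions, with parenchyma 5.60 above far stroma on the log2 scale, while COL4A2/COL4A1 and COL6A2/COL6A1 lie level.

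In close stroma against far stroma, 9 of the 35 tested collagens were higher and 7 lower in close stroma, 45.7% in all against 17% of all genes tested, of which 11% were higher and 5.99% lower. Leaving out single samples gave between 1017 and 1929 genes higher over the whole table (1600 with all samples) and between 176 and 1689 lower (875 with all samples). This comparison shares its far stroma samples with that of parenchyma against far stroma, so the comparisons are not independent. COL17A1 had the largest difference, at 4378 ± 3060 in close stroma (n = 3) and 9.51 ± 0.766 in far stroma (n = 4), a log2 difference of 8.30 ± 0.50 (limma adjusted p = 2.05e-07). COL9A1 followed at 5.87 ± 0.46 (limma adjusted p = 1.92e-06, with 329 reads in close stroma and 3 in far stroma) and COL23A1 at 4.44 ± 0.78 (limma adjusted p = 0.00181). COL7A1 differed by 2.73 ± 0.32 (limma adjusted p = 7.28e-05), COL26A1 by 2.71 ± 0.54, COL9A3 by 2.49 ± 0.49, COL13A1 by 2.39 ± 0.65, COL9A2 by 2.01 ± 0.54 and COL4A5 by 1.86 ± 0.37. COL9A3 and COL9A2 rested on 20 and 13 reads in close stroma, against 1 each in far stroma. In heifer 3, COL13A1 was lower in close stroma (54.65 normalised counts) than in far stroma (64.81). Close and far stroma samples did not overlap in 9 collagens that were higher in close stroma and in 5 that were lower, against 14.2% and 9.17% of all genes tested. All 8 epithelial markers were higher in close stroma too, with a median log2 difference of 7.54.

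The 7 collagens lower in close stroma than in far stroma were COL1A1, COL1A2, COL3A1, COL6A1, COL6A2, COL6A3 and COL14A1, with log2 differences between -2.28 (COL1A1, limma adjusted p = 0.0402) and -1.06 (COL6A1, limma adjusted p = 0.0204). None of these 7 calls held under every alternative. Without the close stroma of heifer 4, or without that of heifer 5, 0 collagens were lower by limma, although 6 and 10 had an unadjusted p under 0.05, and without that of heifer 3, 13 were lower. The count was 2 without the far stroma of heifer 3 and 3 without that of heifer 4. With the heifer as a block it was 5, COL1A1 and COL3A1 being lost (limma adjusted p = 0.0586 and 0.0725). Among the 9 higher collagens, COL9A2 and COL13A1 lost their call without the close stroma of heifer 4 or 5, or the far stroma of heifer 4 or 5 (limma adjusted p of 0.0507 to 0.115 for COL9A2 and 0.0587 to 0.133 for COL13A1). COL13A1 also lost it with the block (limma adjusted p = 0.0505), with the 2 regions only (0.078) and with heifers 3, 4 and 5 only (0.0567). In edgeR it was lost with TMM, RLE and TMM with the block (adjusted p = 0.0722, 0.0747 and 0.0997). COL9A2 also lost its call with pseudocount 10 (log2 difference 0.44, limma adjusted p = 0.157), with the 2 regions only (0.0572) and with heifers 3, 4 and 5 only (0.0528). In limma, the block added COL6A5 (limma adjusted p = 0.00246). Both COL4A1 (-1.22 ± 0.42, limma adjusted p = 0.0676) and COL4A2 (-1.19 ± 0.39, limma adjusted p = 0.0542) missed the threshold, and both passed it without the close stroma of heifer 3 (limma adjusted p = 0.00371 for COL4A1 and 0.00201 for COL4A2). COL4A2 also passed without the far stroma of heifer 1 (limma adjusted p = 0.0448).

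In parenchyma against close stroma, 3 collagens were higher and 4 lower in parenchyma, 20% of the 35 tested against 7.12% of all genes tested, of which 2.02% were higher and 5.1% lower. Leaving out single samples gave between 53 and 385 genes higher over the whole table (295 with all samples) and between 326 and 910 lower (744 with all samples). The higher ones were COL26A1, COL27A1 and COL7A1 (1.17 ± 0.32, limma adjusted p = 0.045), which are described above with their values. The lower ones were COL5A3 (-2.23 ± 0.36, limma adjusted p = 0.00309), COL8A1 (-3.43 ± 0.75, limma adjusted p = 0.0165), COL4A2 (-1.69 ± 0.39, limma adjusted p = 0.0216) and COL4A1 (-1.62 ± 0.42, limma adjusted p = 0.0377). Of the 7, COL26A1 and COL5A3 alone kept their call under every alternative. Without the close stroma of heifer 3, the limma adjusted p of COL8A1 was 0.0798, that of COL4A1 0.158, that of COL4A2 0.0793, that of COL27A1 0.169 and that of COL7A1 0.122. Leaving out the parenchyma of heifer 3, 4 or 5 also lost COL4A1, COL4A2, COL27A1 and COL7A1, with limma adjusted p of 0.0543 to 0.11, that of heifer 4 lost COL8A1 (0.0511), and that of heifer 1 lost COL27A1 and COL7A1 (0.074 and 0.0753). COL4A1 was lost without the close stroma of heifer 5 (0.0668), and COL7A1 without the far stroma of heifer 3, 4 or 5 (0.0513 to 0.0546). Samples did not overlap in 9 collagens that were higher in parenchyma than in close stroma and in 4 that were lower, against 12.8% and 13.4% of all genes tested. The 7 adipocyte markers were all lower in parenchyma than in close stroma and 0 of the 8 epithelial markers were called by limma, 1 having an unadjusted p under 0.05. DESeq2 called 2 of them higher in parenchyma, edgeR with TMM or RLE 0, and edgeR with TMM and the block 1. COL17A1 was not called in this comparison (1.22 ± 0.50, limma adjusted p = 0.158), except without the close stroma of heifer 4 (limma adjusted p = 0.0437).

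Close stroma was set beside the other two regions of the same animal in the 3 heifers that gave all regions. Of the 14 collagens higher in parenchyma than in far stroma, the close stroma value lay between the other two in 13, 12 and 14 genes in heifers 3, 4 and 5. The same held for 3055, 2675 and 2897 of the 3805 genes of the whole table called higher. For these collagens, the median place of close stroma on the log2 scale was 42.4, 86.1 and 72.8% of the way from far stroma to parenchyma. It was 38.2, 79.4 and 73.0% for the 3805 genes. Of the 14 collagens lower in parenchyma, close stroma lay between in 14, 10 and 6 genes, beside 2802, 2683 and 2555 of the 3501 genes of the whole table called lower. Its median place was 32.3, 70.9 and 58.1% of the way, beside 17.4, 70.8 and 61.4% for those genes. In heifers 4 and 5 the close stroma values of COL1A1, COL1A2, COL6A1 and COL6A2 lay below both parenchyma and far stroma, which was not so in heifer 3. For COL1A1, heifer 4 had 16312 in parenchyma, 9257 in close stroma and 101549 in far stroma, and heifer 5 had 49427 in parenchyma, 11544 in close stroma and 47902 in far stroma.

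In parenchyma against far stroma, 50.1% of all genes tested were called, 26.1% higher and 24% lower, the background for the lists below. Genes that modify, process, bind or cleave collagen were taken from 6 lists. Most of those that organise fibrils were lower in parenchyma than in far stroma: 12 of 14 were lower and 2 were not called, with 0 higher by limma, edgeR or DESeq2 (0 at an unadjusted p under 0.05) and a median log2 difference of -1.51. DCN, the proteoglycan decorin that coats type I fibrils, averaged 18525 ± 2015 normalised counts in parenchyma, 22302 ± 4732 in close stroma and 59425 ± 8395 in far stroma, a log2 difference between parenchyma and far stroma of -1.68 ± 0.22 (limma adjusted p = 5.67e-05). OGN (osteoglycin), TNXB (tenascin X) and DPT (dermatopontin) were also lower, by -2.42 ± 0.47, -1.51 ± 0.30 and -1.90 ± 0.31. DCN and DPT are also fibroblast markers here.

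Cross-linking enzymes gave 4 lower, 1 higher and 1 not called of 6, or 83.3% called against 50.1% of all genes. LOX, the lysyl oxidase that starts cross-links between collagen chains, averaged 70.6 ± 36.9 normalised counts in parenchyma, 412 ± 320 in close stroma and 887 ± 329 in far stroma, a log2 difference of -3.66 ± 0.47 between parenchyma and far stroma (limma adjusted p = 4.03e-05). Its relatives LOXL2 (-1.85 ± 0.29) and LOXL4 (-2.58 ± 0.36) were lower, and LOXL3 was higher (1.22 ± 0.30).

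Of 8 genes for propeptide processing, 5 were lower in parenchyma than in far stroma and 2 higher, 87.5% called against 50.1% of all genes. The 5 became 2 with library totals as the scaling or without the parenchyma of heifer 3, and 3 without the parenchyma of heifer 4 or the far stroma of heifer 3. PCOLCE2, an enhancer of procollagen C-proteinase, had the largest difference, with 132 ± 57.3 normalised counts in parenchyma, 2002 ± 1337 in close stroma and 10831 ± 3330 in far stroma (log2 difference between parenchyma and far stroma -6.39 ± 0.41, limma adjusted p = 1.42e-07). ADAMTS2, which removes the N-propeptide of fibrillar collagens, was lower (-1.90 ± 0.38), and the related ADAMTS14 was higher (2.35 ± 0.60), at 15.1 ± 10.6 in parenchyma and 2.15 ± 1.69 in far stroma. PCOLCE, the other enhancer, was lower (-0.89 ± 0.27, limma adjusted p = 0.0149), a call lost with library totals as the scaling (limma adjusted p = 0.0937) and without the parenchyma of heifer 3 (limma adjusted p = 0.0513).

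Among 25 genes for chain modification and folding, 10 were lower, 3 higher and 12 not called, 52% called, near the 50.1% of all genes. With library totals as the scaling, 6 were lower and 6 higher, and 1 was higher without the parenchyma of heifer 1, 4 or 5 or the far stroma of heifer 4. SERPINH1, the collagen chaperone HSP47, averaged 2784 ± 612 normalised counts in parenchyma, 3222 ± 1444 in close stroma and 6582 ± 1280 in far stroma, a log2 difference of -1.25 ± 0.26 between parenchyma and far stroma (limma adjusted p = 0.00144). PLOD2, a lysyl hydroxylase (-1.32 ± 0.26), FKBP14, a prolyl isomerase (-1.91 ± 0.35), and SPARC, a secreted collagen-binding protein (-2.76 ± 0.48), were lower as well. P4HA1, a prolyl 4-hydroxylase subunit, was lower by -0.79 ± 0.21 (limma adjusted p = 0.00839), which was lost with library totals as the scaling (limma adjusted p = 0.177). P3H2, a prolyl 3-hydroxylase known to act on type IV collagen, was higher, at 387 ± 96.0 in parenchyma, 155 ± 8.62 in close stroma and 100 ± 22.3 in far stroma (log2 difference between parenchyma and far stroma 1.93 ± 0.23, limma adjusted p = 2.07e-05).

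Of 11 receptor genes, 3 were higher, 3 lower and 5 not called in parenchyma against far stroma, 54.5% called, near the 50.1% of all genes. ITGA2, the integrin chain for collagen that epithelia use, averaged 135 ± 38.9 normalised counts in parenchyma, 123 ± 68.9 in close stroma and 11.5 ± 10.1 in far stroma (log2 difference between parenchyma and far stroma 3.79 ± 0.55, limma adjusted p = 0.000105). ITGA11, the integrin chain of fibroblasts for fibrillar collagen, averaged 98.7 ± 71.8 in parenchyma, 207 ± 73.7 in close stroma and 959 ± 497 in far stroma (-3.43 ± 0.53, limma adjusted p = 0.00018). ITGA10 (1.32 ± 0.33) and CD44 (0.96 ± 0.18) were higher. ITGA1 (-0.85 ± 0.47) and the collagen-activated kinases DDR1 (0.57 ± 0.24) and DDR2 (-0.78 ± 0.55) were not called, with limma adjusted p of 0.149, 0.0684 and 0.258, but all 3 were called with the heifer as a block (limma adjusted p = 0.0169, 0.0156 and 0.0218). DDR1 was also called with library totals as the scaling and without the parenchyma of heifer 1 or the far stroma of heifer 5 (limma adjusted p = 0.0032, 0.0264 and 0.0113).

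Of 8 proteases that cleave collagen, 6 were lower in parenchyma than in far stroma by limma, 75% called against 50.1% of all genes. Limma called 0 higher, with 1 higher at an unadjusted p under 0.05, and edgeR and DESeq2 called 1 higher. MMP14, a membrane-bound collagenase, averaged 5916 ± 2953 normalised counts in parenchyma, 7014 ± 841 in close stroma and 13822 ± 4787 in far stroma, a log2 difference of -1.28 ± 0.30 between parenchyma and far stroma (limma adjusted p = 0.0037). MMP16 (-2.44 ± 0.43), the lysosomal protease cathepsin K (CTSK, -1.56 ± 0.24) and the fibroblast protease FAP (-1.72 ± 0.39) were lower as well. MMP9, a gelatinase named here after its value was seen, had the highest difference of its list and was not called by limma.

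**Figure D5:**
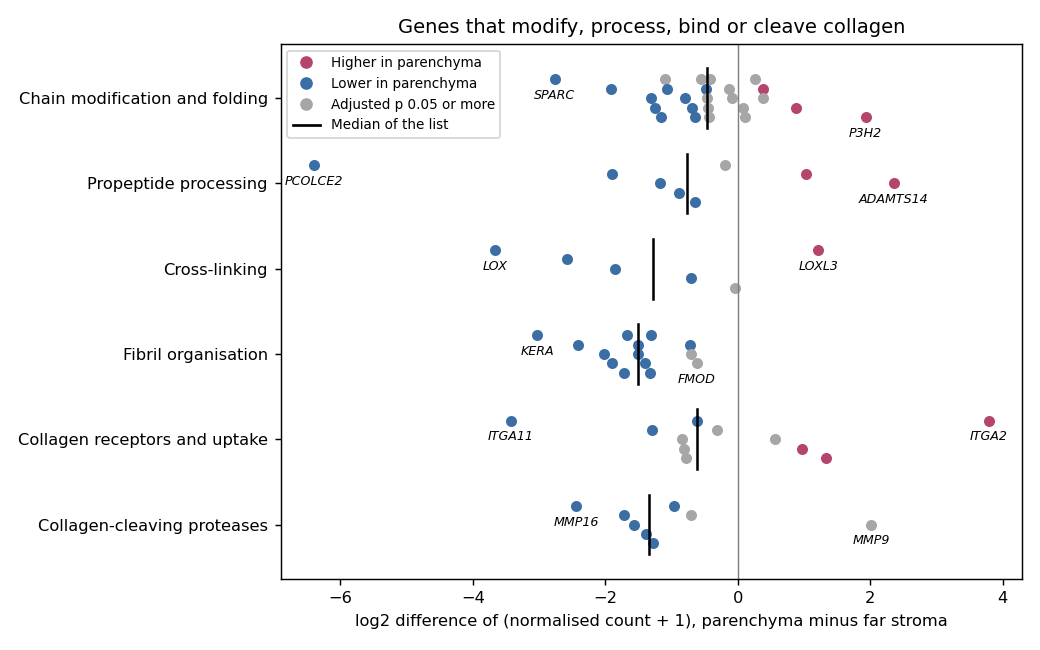
Log2 differences of normalised counts + 1, parenchyma minus far stroma (n = 4 each, limma), for tested genes of 6 collagen pathway lists, with 1 point per gene coloured by call, the median of each list as a line and the lowest and highest gene named. PCOLCE2 lies lowest at -6.39, ITGA2 highest at 3.79, and none of the 14 fibril organisation genes lies above 0.

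In close stroma against far stroma, the same lists gave 8 lower of 25 for chain modification and folding, 4 lower of 8 for propeptide processing, 2 lower of 6 for cross-linking, 4 lower of 14 for fibril organisation, and 1 higher and 2 lower of 11 for receptors. The proteases gave 1 higher and 4 lower of 8. Of all genes tested, 11% were called higher and 5.99% lower. Leaving out single samples moved the lower counts to between 1 and 11 for chain modification and folding, 1 and 4 for propeptide processing, 1 and 3 for cross-linking, 2 and 7 for fibril organisation, 0 and 4 for receptors and 0 and 5 for proteases. In parenchyma against close stroma, each list gave 0 or 1 call in each direction by limma.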

How the data were processed

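Per the submitters' processing notes, the build was ARS-UCD1.2 and the tools cutadapt, STAR, HTSeq and DESeq2, without versions or roles. The sources used here do not say whether strand entered the counting, so reads of overlapping genes cannot be separated. The authors deposited a signal per gene and sample headed as normalised counts. At least 99.9939% of the values of a sample lay within 0.01 of whole reads divided by 1 size factor, so read counts were recovered. Of 16279 genes, 14300 carry a symbol, and genes without one could not enter the family. COL24A1, COL19A1, COL21A1, COL22A1, COL25A1, COL6A4 and COL10A1 were not analysed here. All 38 symbols matched RefSeq's table, used for gene neighbours only (6 neighbouring collagen pairs).

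Log2(value + 1) was tested with limma 3.58.1 (R 4.3.3, variance trend, 3 regions in 1 fit), for genes with a highest group mean of at least 10. The main fit was set for normalised values as deposited, and edgeR 4.0.16 and DESeq2 1.42.0 on recovered reads were alternatives. Means carry SDs over animals, and differences carry SEs. Chain ratios were compared by exact permutation tests (scipy 1.17.1). The fit was tested on simulated data with independent samples, no heifer effect and a small part of the genes changed, in parenchyma alone. That setting differs from these data, so it cannot judge the scaling or the unpaired fit used here.

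Numbers name heifers, so they pair samples. Deviations from group means correlated at 0.117 to 0.383 in 10 pairs of the same heifer and -0.349 to 0.224 in 30 pairs of different heifers. Members, lists and the rule for named genes were chosen with earlier results of these data known. The rule took 19 fixed collagens, the 3 with the smallest p per direction and comparison, and up to 4 genes per pathway list with the smallest p, plus LOX, SERPINH1, P4HA1, DDR1, DDR2, ITGA1 and ITGA2. Alternatives were the pseudocount, the filter, the scaling, the block, the tool, the samples in the fit and leaving out each sample.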

Additional observations from a re-analysis of the deposited data

Results flagged for a closer look

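Over the 35 tested collagens, in 70 groups of 4 samples (parenchyma and far stroma), 3 values stood farther from the other samples of their region than Dixon's 95% limit for a group of 4 allows. That limit flags 1 in 20 groups by chance only for continuous and independent values. These groups share samples and some hold single reads, so the 3 of 70 cannot be set against that rate. All 3 were in the far stroma of heifer 3. COL9A2 had 1.2 normalised counts there and 0 in the other 3 far stroma samples, and COL9A3 likewise had 1.2 there and 0 in the others, so each rests on 1 read. COL6A5 had 4.8 normalised counts there, against 26.4, 26 and 22.6 in heifers 1, 4 and 5.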

How the results depend on the processing

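In parenchyma against far stroma, counts of higher and lower collagens (14 each) stayed within 1.5 times under every alternative. In parenchyma against close stroma, the 3 higher became 5 with pseudocount 10, with the 2 regions only and in DESeq2. They became 1 with heifers 3, 4 and 5 only, and 1 to 4 without single samples. The 4 lower were 1 to 4. Over all genes, the 295 higher became 434 with pseudocount 10, 606 with the 2 regions only, 845 in DESeq2 and 181 with heifers 3, 4 and 5 only. In close stroma against far stroma, the 7 lower became 4 without variance trend, 3 with library totals, 3 with the 2 regions only and 4 with heifers 3, 4 and 5. They became 4 in edgeR with TMM or RLE, 2 in edgeR with the replicate block, and 0 to 13 without single samples. Over all genes, the 875 lower became 679 without variance trend, 303 with library totals, 394 with the 2 regions only and 919 with heifers 3, 4 and 5. In edgeR the all-gene count was 603 with TMM, 716 with RLE and 718 with the replicate block, and it was 176 to 1689 without single samples. Of the collagens called in close stroma against far stroma, 9 of 16 (56.2%) were higher, 81.2% with library totals and 69.2% in edgeR with TMM or RLE. Over all genes called there, 64.6% were higher, 90.2% with library totals, and 72.3% (TMM) and 68.2% (RLE) in edgeR. In parenchyma against close stroma, 42.9% of the collagens called were higher, and 55.6% in DESeq2, against 28.4% and 41.0% of all genes called. Library totals moved the all-gene median by 0.42 in parenchyma against far stroma, 0.08 in parenchyma against close stroma and 0.34 in close stroma against far stroma. With value + 10, the ratios of COL1A2/COL1A1 (-0.35), COL5A1/COL1A1 (0.73), COL4A5/COL4A1 (5.37), COL4A6/COL4A5 (-0.70) and COL6A3/COL6A1 (-0.85) passed (adjusted exact permutation p = 0.0457). Adjustment runs over all 8 ratios, and COL4A6/COL4A5 moved most, from -0.42. The differences of COL1A2/COL1A1, COL5A1/COL1A1 and COL6A3/COL6A1 stayed the same, and that of COL4A5/COL4A1 fell from 5.60 to 5.37. All of these already had the smallest p the test allows (exact permutation p = 0.0286), so their lower adjusted p came with the adjustment alone. In the exact sign-flip test paired by heifer, no ratio passed (adjusted p of 0.25 to 0.75). In limma, the block changed no other collagen call than those named above. In edgeR with the replicate block, COL1A2, COL6A1 and COL6A2 also missed the threshold in close stroma against far stroma (adjusted p = 0.0634, 0.0574 and 0.0567), and COL11A1 passed in parenchyma against far stroma (0.04).

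Signs turned only for differences that were not called. Ranges without single samples are given in brackets. For parenchyma against far stroma, COL18A1 turned to 0.42 with library totals, 0.0070 (TMM), 0.0099 (RLE) and 0.0103 (TMM with block) in edgeR and 0.01 in DESeq2 (-0.19 to 0.13), and COL2A1 without 1 sample (-0.025 to 1.37). For parenchyma against close stroma, COL1A2 turned to -0.0466 with the block, -0.13 with heifers 3, 4 and 5, -0.28 in edgeR with TMM and -0.24 with RLE and in DESeq2 (-0.41 to 0.97), and COL23A1 to -0.0333 (TMM), -0.0122 (RLE) and -0.0097 (DESeq2) (-0.62 to 1.03). Without single samples COL2A1 (-0.72 to 0.27), COL5A1 (-0.0741 to 0.89), COL6A2 (-0.0176 to 0.36) and COL6A3 (-0.55 to 0.0652) turned. For close stroma against far stroma, COL15A1 turned to 0.23 with library totals and 0.0028 with heifers 3, 4 and 5 (-0.39 to 0.0226), and COL16A1 without single samples (-0.0906 to 0.24). The COL4A2/COL4A1 ratio ran from -0.10 to 0.0217. The causes were not tested. Low depth limits COL9A2, COL9A3, COL4A3, COL4A4 and COL20A1.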
